A study of Danio rerio with 8 samples.

Results

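The data described here are the 4 control RNA libraries of a study of 8 zebrafish (Danio rerio) embryo libraries, which asked how resolution of inflammation bears on blood stem cell number and red cell formation. They were chosen by their label alone, as the libraries of untreated embryos, and the 4 libraries of embryos exposed to 7,17-diHDPAn-3, an omega-3 metabolite, were not used. The labels give the tissue as embryo, the cell type as red cell progenitors and red cells, and the treatment as control. The fish named for the study are the AB wild-type strain and the reporter lines Tg(gata1: Dsred), which marks red cells, and Tg(CD41:GFP), which marks thrombocytes and blood stem cells. The library names all carry the tag gata, and that of control 4 alone carries a further mark. The meaning of the tag and of the mark is not given. The labels do not state which line gave these libraries, the age of the embryos when RNA was taken, or how many were pooled. Nor do they say whether cells were sorted, or whether controls received the ethanol in which the metabolite was dissolved. Fish were raised at 28.5 °C, and the design text gives an exposure window of 11 to 36 hours after fertilization for the metabolite screen, without saying whether it holds for these libraries. The labels also do not say whether the 4 libraries came from separate clutches, so the spread between them may be partly technical.

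The blood of a zebrafish embryo starts with a primitive wave of red cells that arises in the lateral mesoderm and enters the circulation, where it makes embryonic α and β globins. Gata1 is the main transcription factor of red cells, alas2 starts their heme synthesis, and band 3 and spectrin build their membrane. Stem cells arise later from the wall of the aorta and need runx1. Around this small blood compartment an embryo is mostly muscle, nervous system, skin and connective tissue, each with abundant transcripts of its own.

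Total counts were 4794081, 3959282, 3131969 and 4165470 in controls 1, 2, 3 and 4, and 17633 to 18909 of the 32020 gene rows had at least 1 count. Levels are given as CPM, the count of a row per 1000000 counts of its library. CPM grows with transcript length as well as with the number of molecules, so CPM of different genes ranks their share of the counts and not their molecules. A row with no count in a library could still hold up to 3 counts, which is 0.626, 0.758, 0.958 and 0.720 CPM in controls 1, 2, 3 and 4. Many rows carry symbols in human style (HBE1, SLC4A1), which are printed as the gene table gives them. Where several rows share a symbol the reads of near-identical copies may be split between them, and their single values are uncertain. A CPM value given for such a symbol is that of 1 row and not the sum over its rows.

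By the label check, red cell transcripts were present but held a small part of the counts. All 16 rows named as globins together held 1.36%, 0.736%, 1.37% and 0.609% of the counts in controls 1, 2, 3 and 4, a mean of 1.02% ± 0.404 (SD, n = 4). In comparison, 52 rows of fast muscle genes held 1.69% ± 1.17, 40 epidermal rows held 1.098% ± 0.299, 33 rows of connective tissue and matrix genes held 0.692% ± 0.169, 23 neural progenitor rows held 0.396% ± 0.0305 and 35 neuronal rows held 0.368% ± 0.0324. In control 1 the globin rows held more than each of these lists. In control 3 they held about as much as fast muscle and more than the other lists. Fast muscle held 0.386% and 1.36% in controls 1 and 3, and epidermis 1.00% and 0.785%. The full globin set was chosen after seeing the data. The planned embryonic globin list, without the HBE1 rows, held a mean of 0.359%. Further red cell lists held means of 0.273% (membrane and enzymes), 0.103% (heme and iron) and 0.0559% (regulators). With exact symbol matches alone fast muscle held 0.996% and epidermis 1.025%, so their order depends on the matching. The order of neural progenitor and neuronal rows depends on it too, with 0.159% and 0.316% by exact matches. Transcripts that define muscle, skin, nervous system and connective tissue were thus measured alongside those of the labelled cell type in every control library. In bulk RNA, fewer cells of a type and less RNA per cell cannot be told apart.

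**Figure D1:**
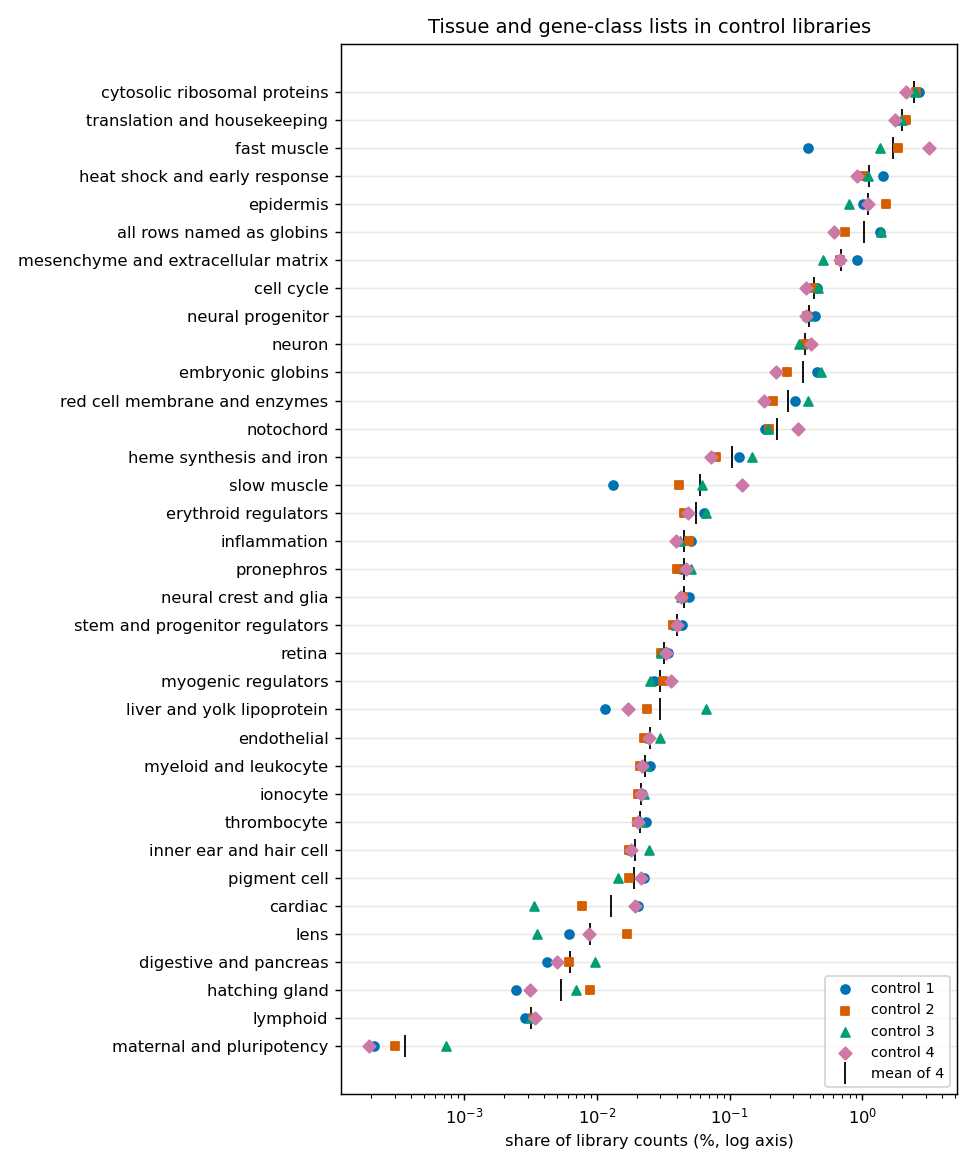
Share of library counts (%, log axis) held by each list of tissue or gene-class genes, one symbol per control library and a vertical tick for the mean of the 4. Ribosomal protein and translation rows hold the largest shares, fast muscle spreads most widely among the large lists (0.386% to 3.19%), and lists with no count in a library are left out.

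The counts were concentrated in few rows. The 10 most abundant rows held 33.8% ± 1.16 of the counts, the 100 most abundant held 45.7% ± 0.857, and between 166 and 215 rows were enough to reach 50% of a library (n = 4). The first row in every library was zgc:158463, which the RefSeq table classes as ribosomal RNA, with 89550, 84480, 87140 and 79050 CPM in controls 1, 2, 3 and 4. Its symbol is a clone name, so it lay outside the rule for named genes and the rankings of rows with a symbol. It is named here as the row of rank 1. Of the 15 most abundant rows, 9 had no symbol, led by ENSDARG00000114910 with a mean of 74090 CPM and ENSDARG00000116076 with a mean of 40350 CPM. Rows with no symbol held 24.6% ± 0.760 of all counts.

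Small structural RNAs followed. The signal recognition particle RNA rn7sl1, part of the machine that brings nascent secreted proteins to the endoplasmic reticulum, had 20800, 17160, 19960 and 13270 CPM in controls 1, 2, 3 and 4. The nuclear long RNA malat1 had 9316, 9146, 10230 and 9123 CPM, and rn7sk, which holds back transcription elongation, had 2407, 2492, 2838 and 2369 CPM. Of these, rn7sl1 varied most between libraries, with its lowest value in control 4.

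**Figure D2:**
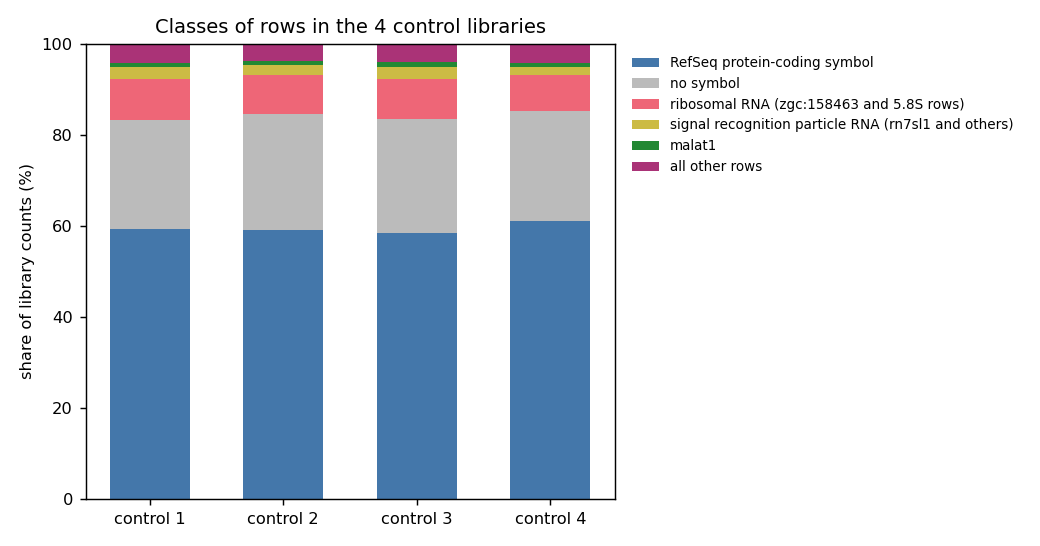
Stacked bars of the share of library counts (%, from 0 to 100) in 6 classes of rows for each of the 4 control libraries. The bars are nearly alike, with protein-coding symbols at 58.5% to 61.0% and rows with no symbol at 23.8% to 25.5%.

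Rows whose symbol is protein-coding in the RefSeq table held 59.5% ± 1.09 of the counts. Among these the counts were spread widely, since the 100 most abundant coding rows held 17.1% ± 0.515 of the coding counts and 923 to 983 coding rows were needed to reach 50% of them. Of the 25 most abundant rows with a symbol, 18 were protein-coding in that table. The HBE1 and TTN rows among the 25 carry symbols that the table lacks, so these globin and muscle rows are left out of the coding shares.

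The leading protein-coding row was krt4, a keratin of the outer skin layer, with 4733, 7554, 3617 and 5306 CPM in controls 1, 2, 3 and 4. It ranked 11 by its mean over all rows. The next rows classed as protein-coding were general factors of protein synthesis and folding and a cytoplasmic actin. Rows named HBE1 and TTN, symbols that the RefSeq table lacks, lay among them, at ranks 17 and 18 and at ranks 20 and 21 over all rows. The elongation factor eef1a1l1 averaged 4406 ± 677 CPM, the chaperone HSP90AB1 3738 ± 277, the elongation factor eef2b 3532 ± 334, the cytoplasmic actin actb2 2792 ± 278 and the chaperone HSPA8 2570 ± 229 (SD, n = 4). Their coefficients of variation, the SD as a percentage of the mean, were 7.42% to 15.4%. Those of the globin, muscle, collagen and keratin genes among the first 25 started at 31.25%, for krt4.

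Red cell and muscle genes among the 25 were the embryonic globins HBE1 and hbae3, and TTN, myhz1.1 and actc1b. Matrix and skin genes were the collagens col1a1a and COL2A1 and the keratins krt4 and cyt1. Nuclear and RNA-binding proteins completed the set. The chromatin protein hmga1a averaged 1407 ± 116 CPM, the zinc finger homeodomain factor ZFHX3 1202 ± 211, the chromatin remodeller CHD7 1169 ± 82.8, the RNA-binding protein khdrbs1a 1152 ± 48.2 and the neuronal splicing factor NOVA1 1103 ± 29.7 (SD, n = 4). NOVA1 had the lowest coefficient of variation of the 25, at 2.69%.

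**Figure D3:**
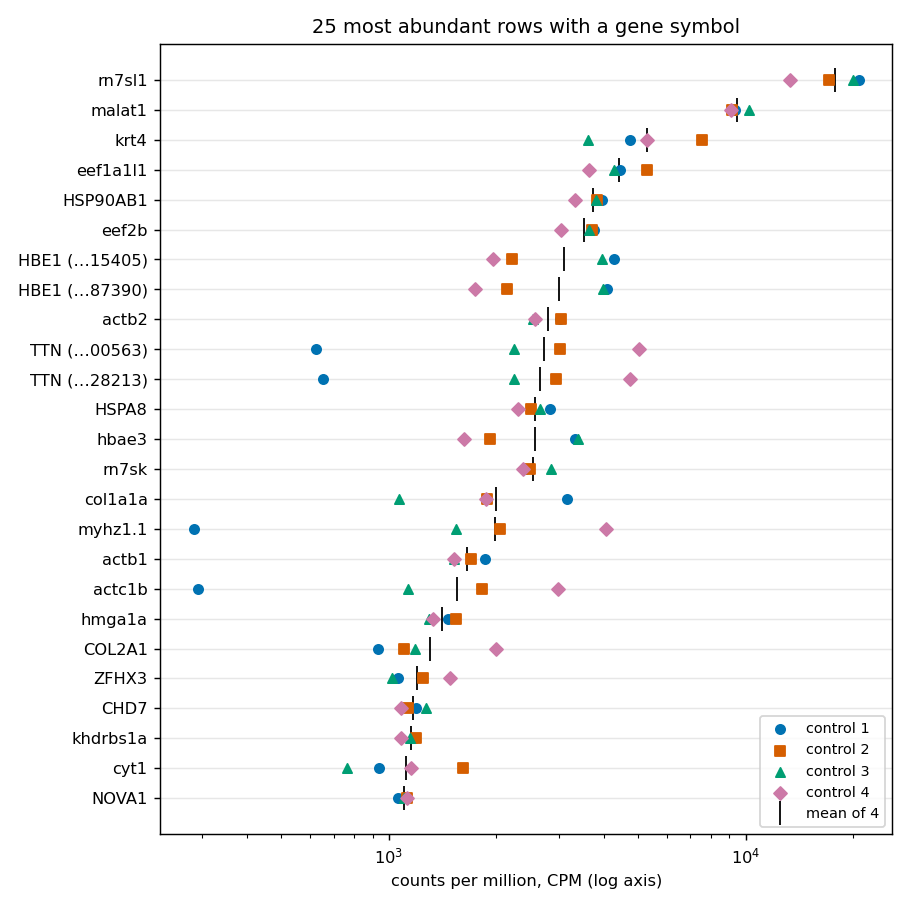
CPM on a log axis of the 25 most abundant rows with a symbol, by mean, in each control library, with a vertical tick for the mean of the 4. Where 2 rows share a symbol the last digits of the row's identifier are given. Muscle rows (TTN, myhz1.1, actc1b) stretch over the widest range, with control 1 lowest and control 4 highest, while malat1, CHD7, khdrbs1a and NOVA1 have nearly overlapping symbols.

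Globins led the red cell genes. Both most abundant HBE1 rows, named after the human embryonic β globin, had near-equal values, with ENSDARG00000115405 at 4276, 2210, 3964 and 1958 CPM and ENSDARG00000087390 at 4090, 2141, 3992 and 1742 CPM in controls 1, 2, 3 and 4. The embryonic α globin hbae3 had 3318, 1916, 3392 and 1621 CPM, and the embryonic β globin hbbe3 had 791, 457, 863 and 366 CPM. Controls 1 and 3 were high and controls 2 and 4 low for all of these, with a gap between the pairs. The adult α globins were at or near no signal: hbaa1 had 3 counts in control 1 and none elsewhere, and hbaa2 had none in any library.

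Other red cell genes had the same libraries at the top and bottom. The erythroid heme synthesis enzyme alas2 had 467, 323, 592 and 275 CPM in controls 1, 2, 3 and 4. The anion exchanger SLC4A1, known as band 3, had 869, 551, 1051 and 491 CPM in 1 of its 2 rows. The membrane skeleton gene SPTB, coding for β spectrin, had 706, 472, 934 and 383 CPM, and epb41b, a protein 4.1 gene, had 511, 295, 604 and 251 CPM. Control 3 was the highest and control 4 the lowest for each of the 4.

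Across the red cell membrane and enzyme list, 12 of the 15 rows with a mean of at least 5 CPM were highest in control 3 and 11 were lowest in control 4. Among all 11707 rows at that level, 22.2% were highest in control 3, 27.16% lowest in control 2 and 19.9% lowest in control 4. The heme and iron list had 11 of 16 rows highest in control 3, with 8 lowest in control 2 and 7 in control 4. It included the transferrin receptor tfr1a at 154, 92.4, 211 and 108 CPM and the mitochondrial iron importer SLC25A37 at 74.7, 56.3, 106 and 56.4 CPM in controls 1, 2, 3 and 4.

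Regulators of the red cell lineage were measured at low levels. The master regulator gata1a had 22.5, 14.9, 22.7 and 9.36 CPM, and klf1, which drives globin transcription in mammals, had 27.7, 15.2, 21.4 and 13.9 CPM in controls 1, 2, 3 and 4. The erythropoietin receptor EPOR had 25.2, 12.9, 32.3 and 12.5 CPM, and the repressor GFI1B had 33.6, 8.34, 28.1 and 10.6 CPM. The Krüppel-like factor klf17 had 42.6, 16.4, 44.7 and 7.68 CPM. All 5 were higher in controls 1 and 3 than in controls 2 and 4. This order held for 10 of the 12 regulator rows at 5 CPM or more and for 18.2% of all rows at that level, a count made after the order was seen.

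Most of the remaining regulators had the same order. TAL1, needed for all blood formation, had 47.1, 25.5, 26.2 and 18.3 CPM, and its partner LMO2 had 14.0, 8.34, 12.5 and 8.88 CPM in controls 1, 2, 3 and 4. The adaptor LDB1 was steadier, with 169, 133, 174 and 165 CPM in the higher of its 2 rows. The exceptions were the lower LDB1 row, NFE2 and ZFPM1. ZFPM1, the Gata1 cofactor FOG1, was highest in control 4, at 63.1 CPM against 47.1, 31.3 and 56.2 CPM in controls 1, 2 and 3. The znfl2a gene had 49.6, 27.8, 68.0 and 26.9 CPM. MYB had 19.0, 15.7, 16.9 and 14.4 CPM and NFE2 had 4.59, 4.55, 4.15 and 2.16 CPM. At still lower levels, drl had 4.38, 1.52, 5.43 and 1.44 CPM and gfi1aa had 1.67, 0.505, 1.92 and 0 CPM.

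Stem cell, thrombocyte and leukocyte genes took small shares. The stem and progenitor list held 0.0401% ± 0.00275 of the counts, and 62.1% of that was MEIS1, a homeobox gene that is also expressed in other embryonic tissues. The thrombocyte list held 0.0213% ± 0.00150, and 70.11% of that was THBS1, which many tissues express, with a coefficient of variation of 1.91%. Its next members were less even, with f13a1b at 43.2, 23.0, 27.14 and 24.01 CPM and the higher ITGB3 row, the integrin β3 gene, at 16.1, 5.81, 14.1 and 8.64 CPM. RUNX1, which stem cell emergence requires, had 6.26, 5.05, 7.98 and 8.64 CPM in controls 1, 2, 3 and 4. The CD41 gene itga2b had 0, 1.26, 4.15 and 1.44 CPM, so that it was not detected in control 1 and was close to the detection limit in controls 2 and 4.

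Leukocyte genes held 0.0229% ± 0.00190 and lymphoid genes 0.00319% ± 0.000226. The lysozyme gene lyz, expressed in macrophages and neutrophils, had 51.3, 33.6, 62.6 and 31.4 CPM, and the actin bundler LCP1 averaged 37.6 ± 3.71 CPM. Of the 2 lymphoid rows at 5 CPM or more, PAX5, which is also a midbrain and hindbrain gene, averaged 18.4 ± 2.60 CPM. The recombinase RAG1 had 8.30 CPM in control 3 and 0, 0 and 0.480 CPM in controls 1, 2 and 4. The vascular list held 0.0252% ± 0.00309, with the endothelial junction genes CLDN5 at 37.7 ± 4.71 CPM and cdh5 at 18.01 ± 5.67 CPM.

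Among the abundant tissue groups, muscle genes varied most between the libraries. The fast muscle list held 0.386%, 1.84%, 1.36% and 3.19% of the counts in controls 1, 2, 3 and 4, a ratio of 8.28 between the highest and the lowest. Without control 4 the mean of 1.69% was 1.195%, and without control 1 it was 2.13%. Of its 46 rows with a mean of at least 5 CPM, 44 were lowest in control 1 and 44 were highest in control 4, where 25.8% and 31.2% of all rows at that level were. Nearly the whole list thus had the same extremes.

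The giant sarcomere protein gene TTN had 624, 3026, 2249 and 5012 CPM in one of its rows and 653, 2949, 2248 and 4753 CPM in the other. The fast myosin heavy chain myhz1.1 had 284, 2048, 1541 and 4058 CPM in controls 1, 2, 3 and 4, and the α actin actc1b had 293, 1827, 1133 and 2972 CPM. The calcium buffer pvalb1 had 26.9, 181, 121 and 397 CPM, and the troponin subunit TNNC2 had 54.4, 391, 287 and 726 CPM. The troponin subunit TNNI2 had 23.6, 174, 109 and 280 CPM in 1 of its 6 rows. In each of these the order was control 1, 3, 2 and 4 from the lowest to the highest.

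Slow muscle had the same extremes, with 0.0133%, 0.0416%, 0.0614% and 0.124% of the counts in controls 1, 2, 3 and 4, but here control 3 lay above control 2. Its main member, the slow myosin heavy chain smyhc1, had 53.2, 190.4, 376 and 733 CPM. All 7 rows of the list at 5 CPM or more were lowest in control 1 and highest in control 4, against 25.8% and 31.2% of all rows. That level is a mean that control 4 itself raises, so part of this count may follow from how rows were chosen. The list of muscle regulators differed less, with a ratio of 1.46 between the highest and lowest library. MEF2D made up 28.2% of it, at 80.3, 96.2, 57.2 and 104 CPM. The list held 0.0299% of the counts but 0.00943% with exact symbols alone, so most of it came from looser matches. Its ratio describes the list as a whole and not each regulator.

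Heart genes followed neither order. The cardiac list held 0.0204%, 0.00765%, 0.00335% and 0.0193% of the counts in controls 1, 2, 3 and 4. Its leading myosin rows were MYH6, at 72.4, 17.9, 1.92 and 67.7 CPM, and MYH7, at 50.5, 15.9, 3.83 and 41.3 CPM. In both, controls 1 and 4, the extremes for skeletal muscle, were high and control 3 was lowest. The other rows of these myosins differed: myh6 had 9.60, 9.09, 10.22 and 6.24 CPM, with control 3 highest, and the second MYH6 row had 2.29, 6.31, 0 and 13.7 CPM. Of the 6 cardiac rows at 5 CPM or more, 3 were lowest in control 3, where 27.16% of all rows were. That level is a mean that the higher libraries raise, so part of this count may follow from how rows were chosen.

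**Figure D4:**
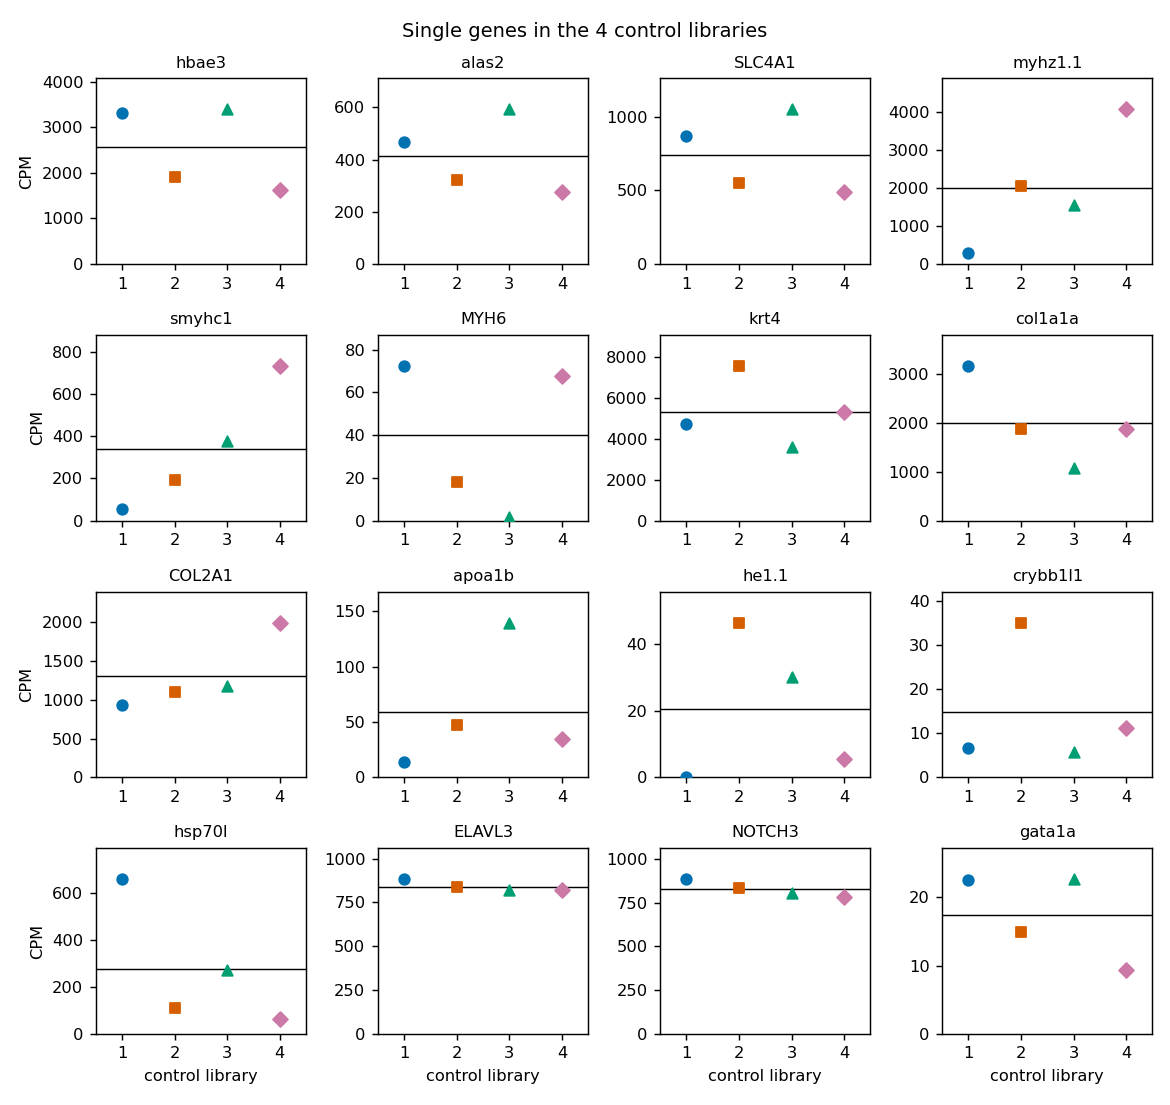
CPM of 16 genes in controls 1 to 4, each panel from 0 on its own linear scale, with a line at the mean of the 4. The panels, picked for illustration after the values were seen, show red cell genes (hbae3, alas2, SLC4A1, gata1a) high in controls 1 and 3, muscle genes (myhz1.1, smyhc1) highest in control 4, and nearly level values of ELAVL3 and NOTCH3.

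Skin keratins were abundant in every library. The epidermal list held 1.00%, 1.50%, 0.785% and 1.11% of the counts in controls 1, 2, 3 and 4. Krt4 made up 48.3% of it, followed by cyt1 at 937, 1617, 762 and 1152 CPM and cyt1l at 704, 1408, 625 and 928 CPM, both type I keratins. Of 37 rows at 5 CPM or more, 28 were highest in control 2 and 24 were lowest in control 3, against 21.6% and 27.16% of all rows at that level. The keratin krt8 was steadier, at 503 ± 48.7 CPM.

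Hatching enzymes, made by the gland that frees the embryo from its chorion, were counted in 3 of the 4 libraries. The protease gene he1.1 had 46.5, 30.0 and 5.52 CPM in controls 2, 3 and 4 and no count in control 1. The related he1.2 had 7.58, 8.30 and 2.64 CPM in the same libraries and again no count in control 1. The ionocyte list held 0.0217% ± 0.000948, led by the sodium pump subunit ATP1B1 at 105, 86.6, 115 and 97.0 CPM in controls 1, 2, 3 and 4 in its higher row. With exact symbols alone it held 0.00267%. Most of the share thus came from looser matches such as ATP1B1 and cannot be read as ionocyte signal alone.

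Nervous system genes were the steadiest of the large tissue groups. The neural progenitor list ranged from 0.376% to 0.441% of the counts and the neuronal list from 0.330% to 0.410%. The Notch receptors, which hold progenitors back from differentiation, had 886, 836, 808 and 781 CPM for NOTCH3 and 739, 680, 681 and 658 CPM for the higher NOTCH1 row in controls 1, 2, 3 and 4. The neuronal RNA-binding gene ELAVL3 had 884, 836, 822 and 819 CPM. The tubulins tubb5 and TUBA1A averaged 337 ± 48.2 and 307 ± 33.1 CPM (SD, n = 4).

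Within this narrow range the lists had different libraries at the top. Of 21 progenitor rows at 5 CPM or more, 18 were highest in control 1, where 25.0% of all rows were. Of 32 neuronal rows, 21 were highest in control 4 and 16 were lowest in control 3, against 31.2% and 27.16% of all rows. The neurogenic factor SOX11 was among the more variable progenitor genes, at 533, 397, 472 and 394 CPM in controls 1, 2, 3 and 4 in its higher row.

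Neural crest and glial genes held 0.0450% ± 0.00295 of the counts, with both SOX9 rows, which cartilage also expresses, averaging 153 and 125.5 CPM. Retinal genes held 0.0319% ± 0.00197, led by OTX2 at 92.2 ± 14.4 CPM, a homeobox gene of forebrain and eye. With exact symbols alone the neural crest list held 0.0124% and the retinal list 0.01315%. Most of both shares thus came from looser matches and cannot be read as signal of these tissues alone. Pigment cell genes held 0.0190% ± 0.00378, with the melanin enzymes TYRP1 at 26.8 ± 7.71 CPM and DCT at 22.9 ± 8.98 CPM.

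Lens genes were low and uneven, with 0.00615%, 0.0169%, 0.00351% and 0.00867% of the counts in controls 1, 2, 3 and 4. Crystallins led the list: crybb1l1 had 6.68, 35.1, 5.75 and 11.3 CPM and CRYBB1 had 7.09, 19.95, 3.19 and 6.96 CPM. Of 8 rows at 5 CPM or more, 7 were highest in control 2, where 21.6% of all rows were. That level is a mean that control 2 itself raises, so part of this count may follow from how rows were chosen. The transcription factor pitx3, the exception among the 8 rows, averaged 9.29 ± 0.642 CPM.

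Connective tissue genes were led by fibrillar collagens. The α1 chain of type I collagen col1a1a had 3156, 1878, 1070 and 1872 CPM in controls 1, 2, 3 and 4. A second α1 row, COL1A1, had 1290, 1042, 801 and 997 CPM, and the α2 chain COL1A2 had 1012, 877, 584 and 795 CPM. In the whole list, 21 of 29 rows at 5 CPM or more were highest in control 1 and 21 were lowest in control 3, against 25.0% and 27.16% of all rows. The fin fold gene and1 is a list member counted among these rows and was named after its values were seen. It was highest in control 1 and lowest in control 3, at 244, 67.4, 22.7 and 98.9 CPM in controls 1, 2, 3 and 4.

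The notochord list held 0.184%, 0.199%, 0.195% and 0.325% of the counts. The type II collagen COL2A1, shared by notochord and cartilage, had 933, 1100, 1180 and 1999 CPM in its higher row, and col9a1b had 130, 162, 167 and 352 CPM. Control 4 stood above the other libraries in both, and 11 of 14 rows of the list at 5 CPM or more were highest there, where 31.2% of all rows were. The 5 CPM level is a mean that control 4 itself raises, so part of this count may follow from how rows were chosen. The fibrillar collagen COL11A1, a member of the connective tissue list, had 456, 442, 469 and 678 CPM.

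Organs of the trunk gave little signal. The kidney tubule list held 0.0453% ± 0.00473, but 0.00561% with exact symbols alone. Most of it thus came from looser matches and cannot be read as kidney signal alone. Its leading rows were the endocytic receptor LRP2 at 109, 104, 144 and 139 CPM and the phosphate carrier SLC20A1, at 122 ± 14.4 CPM in 1 of its 2 rows. Liver and yolk lipoprotein genes held 0.0116%, 0.0238%, 0.0662% and 0.0171% in controls 1, 2, 3 and 4, and their mean of 0.0296% was 0.0175% without control 3. The yolk layer itself makes apolipoproteins in zebrafish embryos.

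The main apolipoproteins all had their highest value in control 3. The high-density lipoprotein gene apoa1b had 14.0, 47.5, 140 and 34.1 CPM in controls 1, 2, 3 and 4, apoa1a had 10.22, 34.9, 97.4 and 17.5 CPM, and apobb.1 had 9.18, 37.6, 63.9 and 14.4 CPM. The apolipoprotein E gene apoeb had 47.1, 27.3, 90.04 and 36.7 CPM. Of 13 rows of the list at 5 CPM or more, 12 were highest in control 3, where 22.2% of all rows were. The 5 CPM level is a mean that control 3 itself raises, so part of this count may follow from how rows were chosen. With the filter on low counts the list held 0.0201%. The plasma retinol carrier RBP4 was level, at 17.7 ± 1.58 CPM, while the hepatocyte marker fabp10a had no count in any library.

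Pancreas and gut genes were low, with 12 of 26 rows at no count in any library and 6 at a mean of 5 CPM or more. Of all 32020 rows, 21512 had a count in at least 1 library and 11707 had a mean of at least 5 CPM. The elastase ela2 averaged 14.0 ± 2.32 CPM and the carboxypeptidase CPA1 11.0 ± 4.54 CPM in its measured row. Insulin, ins, had 0.626, 12.1, 10.5 and 6.48 CPM in controls 1, 2, 3 and 4, and somatostatin, sst2, had 24.3 CPM in control 3 and 0, 0 and 4.32 CPM in controls 1, 2 and 4.

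In all, 78 rows of the lists had no count in any of the 4 libraries, while 21512 of all 32020 gene rows had a count in at least 1. The list rows at no count included 6 of 9 pituitary rows (fshb, lhb, POU1F1, TSHB and both CGA rows), 4 of 8 germ cell rows (NANOS3, DND1, tdrd7a and ca15b) and 5 of 11 maternal and pluripotency rows (h1m, BTG4, zp2.1, zp3 and nanog). The yolk protein genes vtg2 and vtg3, the stem cell gene gata2b, the cone opsin gene opn1lw1 and the T cell genes lck, cd4-1 and cd8a were also at no count. At these depths a row at no count can lie anywhere below the limits given above, so these genes were not detectable rather than absent.

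**Figure D5:**
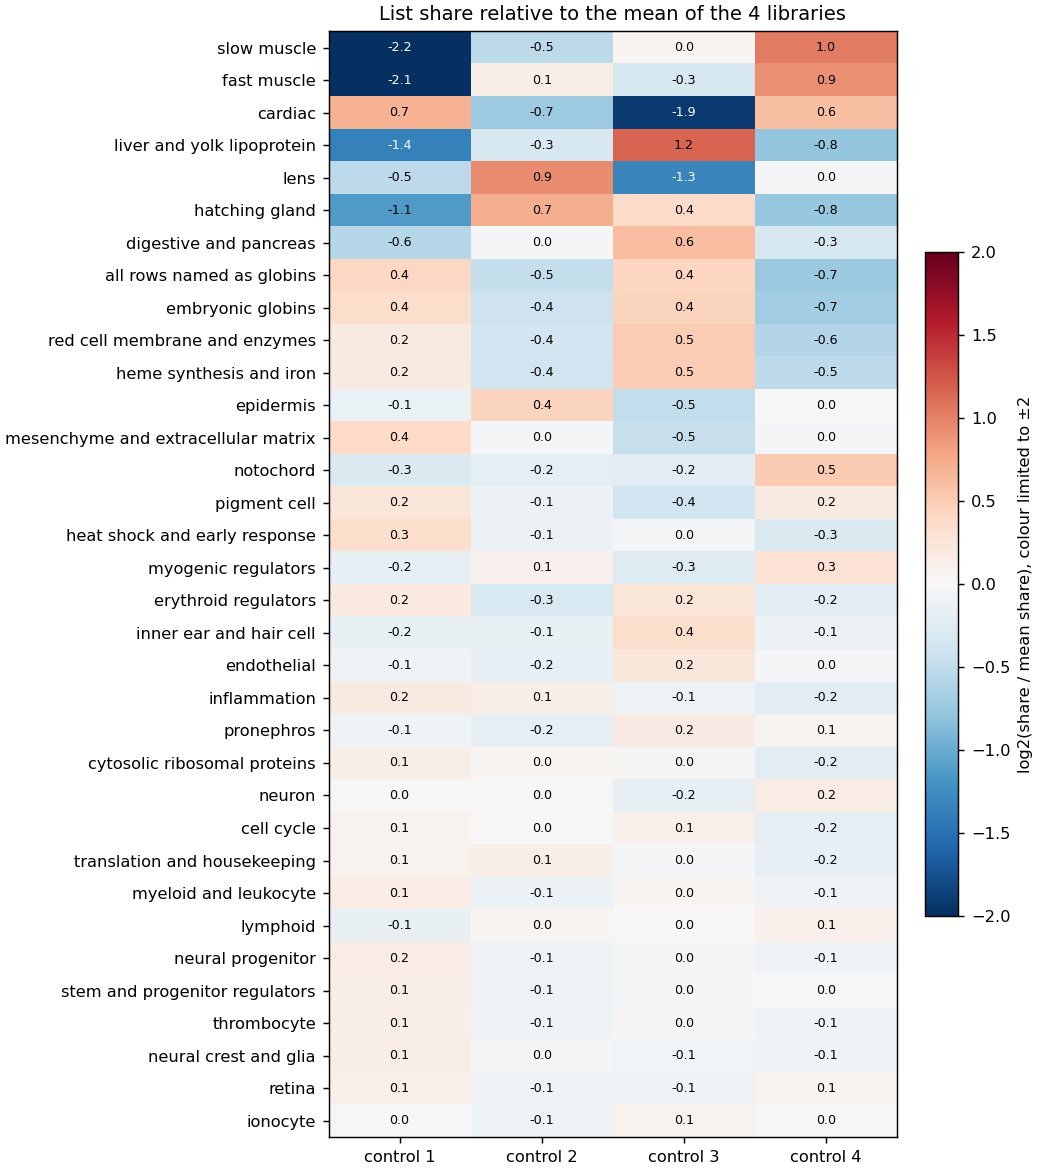
Share of counts of each list in each control library relative to the mean of the 4, as log2, with colour limited to ±2 and lists ordered by their range (the scarcest lists are left out). Slow and fast muscle (-2.17 and -2.14 in control 1), cardiac (-1.92 in control 3) and liver and yolk lipoprotein (1.16 in control 3) are the most uneven, and ionocyte and retina the most even.

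Genes of dividing cells and of protein synthesis were steady. The cell cycle list held 0.432% ± 0.0383 of the counts, with mki67, the Ki-67 antigen, at 654, 643, 780 and 561 CPM and the topoisomerase TOP2A at 312, 288, 330 and 269 CPM in controls 1, 2, 3 and 4. Of its 26 rows at 5 CPM or more, 22 were lowest in control 4, where 19.9% of all rows were. The 80 rows of cytosolic ribosomal proteins held 2.65%, 2.52%, 2.48% and 2.12%, led by RPL3 at 979 ± 57.2 CPM and RPS2 at 834 ± 93.4 CPM. Of 79 of them at 5 CPM or more, 71 were lowest in control 4, against 19.9% of all rows. Shares sum to the whole library, so a larger share of other genes lowers them. Fast muscle held 0.386% of the counts in control 1 and 3.19% in control 4, and its part in this was not tested.

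Heat-inducible chaperones had highest-to-lowest ratios between libraries like those of muscle genes, at 7.54 for HSP90AA1, 7.15 for hsp70.1 and 10.5 for hsp70l. HSP90AA1 had 1211, 201, 480 and 161 CPM in controls 1, 2, 3 and 4, hsp70.1 had 910, 193, 324 and 127 CPM, and hsp70l had 658, 110, 269 and 62.4 CPM. These 3 are members of the heat shock and early response list but were named after their values were seen. The constitutive chaperones HSPA8 and HSP90AB1 given above varied far less, with the same library highest and lowest. Of the 19 rows of the list at 5 CPM or more, 17 were highest in control 1, where 25.0% of all rows were, and among them the early response gene JUNB had 872, 578, 618 and 561 CPM in its higher row.

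Inflammatory genes were low. Their list held 0.0456% ± 0.00568, led by the NF-κB inhibitors nfkbiab at 129, 122, 115 and 80.2 CPM and nfkbiaa at 114, 125, 72.8 and 87.4 CPM. The cyclooxygenase PTGS2, which makes prostaglandin precursors, averaged 43.3 ± 7.05 CPM in its higher row and the matrix protease MMP9 averaged 40.0 ± 11.2 CPM (SD, n = 4). Interleukin 10, under the symbol IL10, was at no count in any library.

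Over all genes the spread between the libraries exceeded counting error. The biological coefficient of variation estimated by edgeR, the spread left after counting error is taken away, was 0.224 over 12225 rows. Coding rows at 200 to 1000 CPM had a median coefficient of variation of 9.25%, where counting alone gives 2.87%. Pairs of libraries differed by 7.56 to 18.4 times the variance of counting, with controls 1 and 4 farthest apart, so no library repeated another. Pearson's r of log2(CPM + 1) across genes, which are not independent replicates, lay between 0.930 and 0.951.

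Of 2731 rows with a symbol and at least 50 CPM, the 10 with the largest SD of log2(CPM + 1) were 2 small RNA rows and 8 muscle rows. The small RNA rows were 1 row of the small nuclear RNA U1 and 1 row of the small nucleolar RNA U3. The muscle rows were those of myhz1.1, myhz1.2, myhc4, smyhc1, pvalb1, TNNC2, TNNI2 and MYL11. The U3 row, 1 of 29 with that symbol, was not detected in control 3 but had 80.3, 91.4 and 94.1 CPM in controls 1, 2 and 4. The U1 row, 1 of 162 with that symbol, had 2.92, 39.7, 0.639 and 357 CPM in controls 1 to 4. Reads of near-identical copies may fall on other rows, so these values do not give the level of either RNA. Of the 100 most variable of the 2731 rows, 27 were on the muscle lists, which had 28 rows among all those considered.

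At the other end of this order, the polycomb cofactor AEBP2 had 68.0, 67.4, 67.7 and 68.2 CPM in controls 1, 2, 3 and 4, a coefficient of variation of 0.486%. The acetyltransferase EP300 averaged 553 ± 5.31 CPM, the cohesin loader NIPBL 347 ± 4.17 and the remodeller CHD2 236 ± 2.71 (SD, n = 4). The others of the 10 steadiest rows were ppiab, DENND2B, UBA2, ssbp3b, CEP350 and hmgn6. Their spread lay below what counting alone would give on average.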

How the data were processed

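Embryo total RNA was made into stranded total RNA libraries with ribosomal depletion by mammalian probes and sequenced as 100 base pairs from both ends, per the labels' protocols. The authors deposited raw counts per Ensembl gene, whole numbers with no normalization. The submitters' processing notes list the build GRCz11 with HISAT2 (2.1.0) and Trim Galore (0.5.0), and DESeq2 (1.22.1), CASAVA (1.8.2) and StringTie (1.3.3b), without their roles, and how strand, overlapping genes and multiply mapping reads were counted is not given in the sources used here.

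The 4 control libraries were taken by their labels, and no comparison between groups was made. CPM was the count over the library total, with no filter. Symbols came from a table of gene IDs (28975 rows with a symbol and 3045 without) and biotypes from RefSeq (assembly GRCz12tu) by symbol. Of 767 list entries, 565 matched a symbol exactly, 70 by synonym, 94 by the symbol without its zebrafish suffix and 38 not at all. The widest 95% Wilson interval of a list share was ±0.0172 percentage points, covering counting error only. The biological coefficient of variation came from edgeR 4.0.16 in R 4.3.3, after its filter on low counts, and was tested on simulated data. The genes named were the 25 most abundant rows with a symbol, the 4 leading members of each list, all red cell regulators, RUNX1 and itga2b, list members at no count, and the 10 most and 10 least variable rows at 50 CPM or more. Rows whose symbol is a clone or locus name were left out of these 25 and of the most and least variable rows. Genes named outside this rule, which include further list members, were chosen after their values were seen. The members and lists were chosen with earlier results of these data known. Transcript lengths and sequences were not used here, so CPM per length was not computed.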

Additional observations from a re-analysis of the deposited data

Results flagged for a closer look

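Of 205 list shares, library measures and named genes, 12 (5.85%) had a highest or lowest library set apart from the other libraries. The gap was above the 95% critical value of Dixon's ratio of gap to range. The share flagged is about the 1 in 20 that chance gives, but lists and their own members were both tested, so the items are not independent. Control 4, whose library name alone carries a further mark of unstated meaning, stood apart in 6 of the 12. Its notochord share was 0.325% (0.184% to 0.199% in the others), and it had 352 CPM of col9a1b (130 to 167) and 678 CPM of COL11A1 (442 to 469). It had 51.9 CPM of PRDM1, a regulator of slow muscle fate (34.5 to 36.7), and, on the low side, 645 CPM of RPLP0 (786 to 805). The single U1 row given above had 357 CPM there (0.639 to 39.7).

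Control 3 stood apart in 4. Its inner ear share was 0.0248% (0.0174% to 0.0180% in the others), with 63.5 CPM of stm, an otolith matrix gene (19.5 to 26.7). The mean inner ear share was 0.0194%, but 0.00851% with exact symbols alone, so most of it came from looser matches. On the low side, tuba1c was at 275 CPM (353 to 356) and the single U3 row given above was at 0 CPM (80.3 to 94.1). In control 1, GATA2, a stem cell and endothelial factor, had 67.0 CPM (46.7 to 48.7). In control 2, CHD2 had 232 CPM (237 to 238), a gap that is small beside the level of the gene.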

How the results depend on the processing

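Results were recomputed with TMM library sizes, other denominators, stricter symbol matching, a filter on low counts and each library left out. Over the named rows alone, the 100 most abundant rows held 29.9% of the counts, and the shares were 0.489% for neurons, 1.46% for epidermis, 0.918% for mesenchyme, 3.24% for ribosomal proteins and 2.63% for translation. Over protein-coding rows alone they were 17.1% for the first 100 rows, 0.606% for embryonic globins, 0.619%, 1.85%, 1.16%, 4.12% and 3.33%. Exact symbols alone gave 0.316% for neurons and 0.434% for mesenchyme. In all, 15 of 37 list shares were over 1.5 times as large as with exact symbols alone, which gave 0.996% for fast muscle (below 1.025% for epidermis), 0.168% for red cell membrane, 0.0263% for erythroid regulators, 0.159% for neural progenitors, 0.0458% for notochord, 0.00887% for stem and progenitor genes, 0.00461% for thrombocytes, 0.00267% for ionocytes and 0.00561% for pronephros. All globin rows together held 1.02%, where the listed embryonic globins held 0.359%. These differences follow from the rows counted. The protein-coding denominators and the full globin set were chosen after seeing the data.

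The biological coefficient of variation was 0.335 with no filter, over 21512 rows, 0.224 with DESeq2 size factors and between 0.208 and 0.234 with each library left out. With TMM library sizes 186 of 188 named genes moved by less than 1 SD between libraries. CPM per kilobase was not run, as no transcript lengths were used. No paired analysis was possible because there is only 1 group. At 3131969 to 4794081 counts, genes below about 1 CPM were at the limit of detection.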
